A study of Xenopus laevis with 15 samples.

Results

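Untreated whole embryos of Xenopus laevis, the African clawed frog, were described here on their own: 5 control libraries of 15 in the series, each made from a pool of 3 whole embryos at 6 days after fertilization. Embryos bred from a laboratory colony were raised at 21 °C for 48 h, to about Nieuwkoop and Faber stage 29, and were then held for 96 h in dishes with no added lead (water control), under the same conditions as the 2 lead nitrate groups of the series (5 libraries each, called lead 210 and lead 630 after their label values, since the labels and the protocol give different units). The labels give no transgene, mutation, strain or other agent for these animals. The parents of each pool are not given either, so pools may share parents. The p-values below concern only these 5 pools, called controls A to E. Those from edgeR also rest on a spread shared over all pairs tested. Poly(A) RNA was sequenced, and the deposited table holds read counts for 37018 genes. The homeolog pairs were taken from the authors' gene symbols: 2 symbols that differ only by a final .L or .S form a pair, and a pair was kept where at least 1 copy averaged 1 CPM or more (counts-per-million, with library sizes scaled by TMM). Of 645 such pairs, 630 were kept, which are 1260 of the 37018 genes. Among those just outside the limit were crh and nkx2-5, whose higher copies averaged 0.919 and 0.865 CPM, and just inside were cga, fbxo5 and t, at 1.05, 1.09 and 1.23 CPM.

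Xenopus laevis is an allotetraploid: its ancestor arose from a cross of related frogs followed by doubling of the chromosome set, and most chromosomes still exist as a longer (L) and a shorter (S) copy. Genes kept on both are homeologs, named with .L and .S. After such a doubling a gene pair can keep both copies active, divide the ancestral roles between tissues, or lose the activity of 1 copy, and genes on the L chromosomes are known to have been kept more often. At 6 days the animal is a young tadpole with a beating heart, swimming muscle, eyes, pigment and a differentiating gut.

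The 5 libraries held 12550450 to 24281267 counts, and in each a gene with no read could have had up to 0.124 to 0.239 CPM (3 counts). Averaged over the pools, 25723 genes reached 1 CPM and 14224 reached 10 CPM, and the median coefficient of variation between pools was 9.18% among those at 10 CPM or more. Log-scale correlations between libraries ran from 0.959 to 0.984. Control B stood apart on the first principal component, which held 45.5% of the variance. Its score was -56.6, against -0.473, 3.09, 26.6 and 27.4 in controls A, C, D and E. The pancreas genes high in control B are described below, and their part in this component was not tested. No transcript lengths were at hand, so the CPM of different genes are shares of reads that grow with transcript length, and no order of expression between genes is drawn from them.

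Genes of muscle, protein synthesis and the extracellular matrix took the largest shares of reads. Creatine kinase ckm.L, which regenerates ATP in contracting muscle, had 14334.5, 13616, 14147, 16080.5 and 15262 CPM in controls A to E, a mean of 14688 ± 979 CPM (SD, n = 5) or 1.47% of all counts. The authors' table calls the same gene ckm.S. The 25 genes with most counts among those with a gene symbol that is no placeholder, each at 2334 CPM or more, included the actins actc1.L, actc1.S, acta4.L and acta4.S of heart and early body muscle, both copies of atp2a1 (the calcium pump of the sarcoplasmic reticulum), mylpf.L, myl1.S, myh4.L, tnnt3.S and tpm1.L of the sarcomere, both copies of eef1a1 and eef2.1 (translation elongation) and of the cytoplasmic actin actg1, and col1a1 and col1a2 of type I collagen. Also among them were fth1.1.S, which encodes the iron-storing ferritin heavy chain and averaged 2895 ± 361 CPM, the mitochondrial ADP/ATP carrier slc25a5.L at 2927 ± 296 CPM, the heat shock 70 family gene hspa1l.S at 3524 ± 137 CPM and the ribosomal protein gene rpl3.L at 2640 ± 211 CPM (SD, n = 5). The 100 genes with most counts held 22.1 ± 0.512% of all counts and the 10 with most held 6.87 ± 0.230% (SD, n = 5).

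Every one of the 22 tissue lists held counts in each pool, but the exocrine pancreas list did so mainly in control B. It held 0.327% of counts there and 0.00212% to 0.00610% in the other pools. Outside the pancreas list the SD between pools was at most 26.8% of a list's mean. The skeletal muscle list of 63 genes, of which 60 averaged 1 CPM or more, held 6.57 ± 0.279% of counts. The heart list held 1.82 ± 0.148%, mostly through actc1, which early body muscle of the frog also uses. Connective tissue genes held 1.70 ± 0.150% and epidermal genes 1.42 ± 0.0546%, led by the larval type I keratin krt12.5.L (2248 ± 132 CPM) and the type II keratin krt62.S (1678 ± 138 CPM; SD, n = 5 throughout). Among non-tissue lists, the cytosolic ribosome held 8.56 ± 0.763%, translation factors 3.22 ± 0.0941% and nuclear genes of oxidative phosphorylation 1.61 ± 0.0867%. A list of actins and tubulins without the muscle actins actc1 and acta4 held 1.72 ± 0.0412%. The spliceosome held 0.896 ± 0.0227%, glycolysis 0.748 ± 0.0619% and the proteasome 0.272 ± 0.00735%. A chaperone list without hspa1l.S and with the mitochondrial hspa9 held 0.413 ± 0.0153%. Glutathione and redox genes held 0.249 ± 0.0136% and mitochondrial ribosome genes 0.166 ± 0.00905%. Signalling genes held 0.191 ± 0.0128%, hox genes 0.0208 ± 0.00100% and other developmental transcription factors 0.377 ± 0.00686%. The glial list held 0.253 ± 0.0164%, a large part of it in the glutamate-ammonia ligase genes glul.S (0.0809% of counts) and glul.L (0.0315%). The list of mucus and small secretory cells held 0.0958 ± 0.0131%. A whole-embryo share joins the number of cells of a type and the RNA in each cell, which cannot be told apart in these libraries.

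Organ products were measured too. The liver list, of secreted plasma proteins, held 0.737 ± 0.133% of counts and was led by apolipoprotein apoa1.S (829 ± 143 CPM) and transferrin tf.L (641 ± 185 CPM). The erythroid list held 0.415 ± 0.0589%, led by the globins hba3.L (1333 ± 242 CPM) and hbd.S (1209 ± 236 CPM). Photoreceptor genes held 0.489 ± 0.0583%, with the rhodopsin genes rho.2.L at 965 ± 134 CPM and rho.L at 672 ± 110 CPM. Neuronal genes held 0.623 ± 0.0306%, led by tubulin tubb2b.S (306 ± 26.5 CPM) and stathmin stmn2.S (261 ± 25.3 CPM). The stathmin acts on axonal microtubules. Cartilage genes held 0.578 ± 0.0898%, with the fibrillar collagens col11a1.L at 1134 ± 88.5 CPM and col2a1.L at 1025 ± 147 CPM. Intestinal genes held 0.283 ± 0.0547%, led by the brush border peptidase anpep.L (481 ± 94.9 CPM). Smaller shares came from kidney (0.0684 ± 0.00367%), ionocytes (0.0664 ± 0.00581%), endocrine cells (0.0533 ± 0.00236%), multiciliated cells (0.0462 ± 0.00397%), phagocytes (0.0436 ± 0.00651%), melanophores (0.0403 ± 0.00295%), dividing cells (0.0352 ± 0.00333%) and endothelium (0.0307 ± 0.00329%). Among the melanophore genes, the pigment enzyme gene tyrp1.L averaged 109 ± 11.9 CPM and the melanosome matrix gene pmel.L averaged 87.8 ± 10.8 CPM (SD, n = 5).

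**Figure D1:**
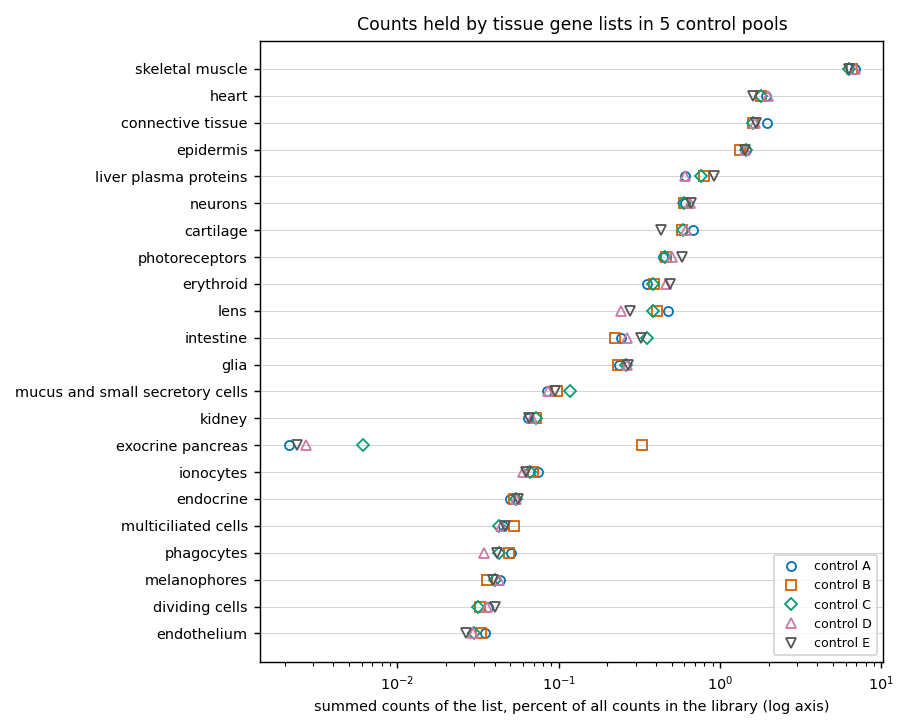
Summed counts of 22 tissue gene lists as percent of all counts (horizontal log axis) in the 5 control pools, 1 symbol per pool. The pools lie furthest apart in the exocrine pancreas list, where control B stands at 0.327% and the other 4 pools between 0.00212% and 0.00610%. Next in spread is the lens list, from 0.244% to 0.475%.

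Digestive enzyme genes of the exocrine pancreas were high in 1 of the 5 pools. The list held 0.327% of counts in control B, against 0.00212%, 0.00610%, 0.00272% and 0.00238% in controls A, C, D and E. Chymotrypsin C, ctrc.L, had 606 CPM in control B, against 0.171, 6.55, 0.404 and 0.279 CPM in controls A, C, D and E. Carboxypeptidase A1, cpa1.L, had 533 CPM in control B and at most 5.11 CPM in the other pools. Across all genes, 45 had at least 10 CPM in control B and at least 10 times the level of every other control, and no gene met that rule in control A, C, D or E. Of these 45 genes, 17 were in the pancreas list and 28 were not, and 12 of the 28 are named in the authors' table as trypsin, chymotrypsin, elastase, amylase, carboxypeptidase or colipase genes. The 17 list genes summed to 3204 CPM (without TMM scaling) in control B, to 37.3 CPM in control C and to 3.69, 2.87 and 3.29 CPM in controls A, D and E. Their sum in control C was thus above that of the other 3 pools, and single genes there were at 0.738% to 4.33% of their level in control B, with a median of 1.03%. The rule that chose these genes required at least 10 times the level of every other control. The gap of these 17 genes to control B therefore follows in part from that choice. In the 10 lead libraries the list held 0.00318% to 0.0113% of counts, so control B was above all 14 other libraries of the series.

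Control B thereby set which genes varied most. The 10 genes with the highest coefficient of variation, 219% to 221%, were all pancreatic: cela1.1.L, cela1.3.L, cela1.5.L, ctrb1.L, ctrl.L, ctrc.L, cpa1.L, cpb1.S and both copies of cel.2 (bile-salt-stimulated lipase). Without control B, 0 of these 10 were among the 10 most variable genes, and the coefficients there ran from 58.7% to 118%. That second set, computed after the data were seen, was led by pigs.L, at 110 CPM in control D against 11.5 to 34.1 CPM in the others. Its members crygdl.3.S, alpk2.S and col4a2.S were highest in control A and hbg2.L in control D. It also included clca1.2.L and clca1.1.L, secreted proteins of the calcium-activated chloride channel regulator family that are found with mucus cells. clca1.1.L had 279.5 CPM in control C, against 92.3, 156, 81.6 and 119.5 CPM in controls A, B, D and E. The detoxifying glutathione transferase gstp1.L was also highest in control C, at 64.1 CPM against 11.9 to 23.4 CPM in the others. Lens genes differed between pools as well. The list held 0.382% to 0.475% in controls A to C and 0.244% and 0.275% in controls D and E, and the beta-crystallin crybb1.L had 350, 283, 271, 152 and 184 CPM in controls A to E. The constitutive chaperone hspa8.L had 801 CPM in control D against 394 to 571 CPM in the others. Each of these values is 1 pool of 3 embryos, and their source was not tested.

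The .L copy was higher in more pairs than the .S copy. In edgeR's quasi-likelihood test with library as a block, 545 of 630 pairs (86.5%) differed between copies at an adjusted p under 0.05. The .L copy was higher in 316 pairs (50.2%) and the .S copy in 229 (36.3%), and 85 pairs were not called; without control B, 301 and 224 pairs were called. At least 2-fold differences were called for .L in 151 pairs (24%) and for .S in 95 pairs (15.1%), at least 4-fold ones in 57 and 33 pairs, and at least 10-fold ones in 14 and 11 pairs. The median log2 ratio of .L over .S was 0.20, with quartiles at -0.54 and 0.95. Regardless of direction, the median difference was 1.71-fold, and 251 pairs were within 1.5-fold. Libraries gave nearly the same balance: the per-library median log2 ratio was 0.189, 0.199, 0.158, 0.185 and 0.191 in controls A to E, a mean of 0.184 ± 0.0155 (SD, n = 5), above 0 in 5 of 5. A 2-sided exact sign-flip permutation test of these medians gave p = 0.0625, the smallest that 5 libraries allow. These are ratios of read counts, not per length, so an annotated length that differs between copies is part of each ratio.

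**Figure D2:**
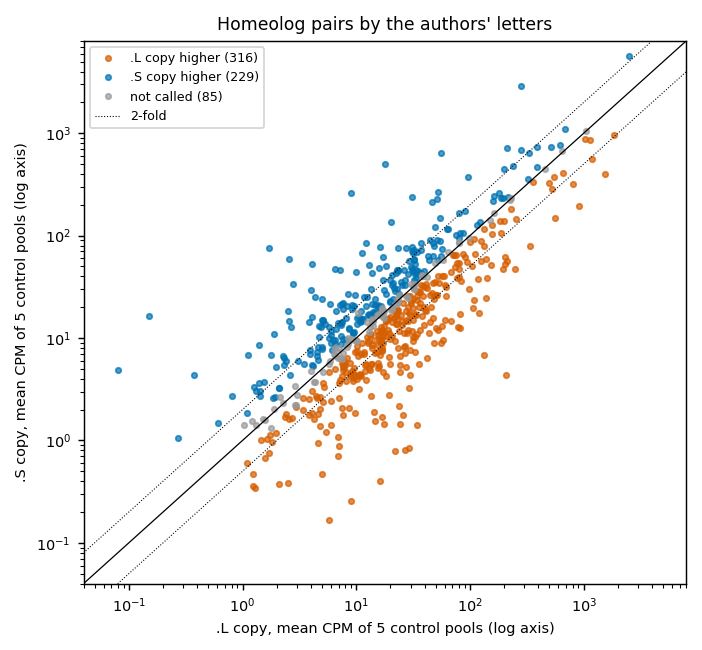
Mean CPM over 5 control pools of the .L copy (horizontal log axis) and the .S copy (vertical log axis) of 630 homeolog pairs, colored by the edgeR call, with equality as a solid line and 2-fold as dotted lines. Most points lie between the dotted lines, with 316 pairs called higher for .L and 229 for .S.

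The direction of a ratio rests on the letters, and the RefSeq gene table and the authors' table do not always give the same ones. Of the 630 pairs, 513 carry the same letters in RefSeq (Xenopus laevis v10.1), 101 carry them exchanged, and 16 are not named there as the .L and .S copies of 1 gene. In the 513 pairs the .L copy was higher in 271 and the .S copy in 170, with a median log2 ratio of 0.29. In the 101 exchanged pairs, by the authors' letters, .L was higher in 32 and the .S copy in 56, with a median of -0.39. With RefSeq letters on the 614 pairs that have them, .L was higher in 327 and .S in 202, at least 2-fold in 150 and 83, and the median log2 ratio was 0.30. RefSeq symbols also form pairs from genes that the authors' table lists only as placeholders. Among 7375 such pairs, .L was higher in 4046 (54.9%) and .S in 2229 (30.2%), at least 2-fold in 2177 (29.5%) and 972 (13.2%), and the median log2 ratio was 0.36. Most of the 630 pairs are among the 7375, which come from the same 5 libraries, so this is a wider count and not a separate measurement.

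**Figure D3:**
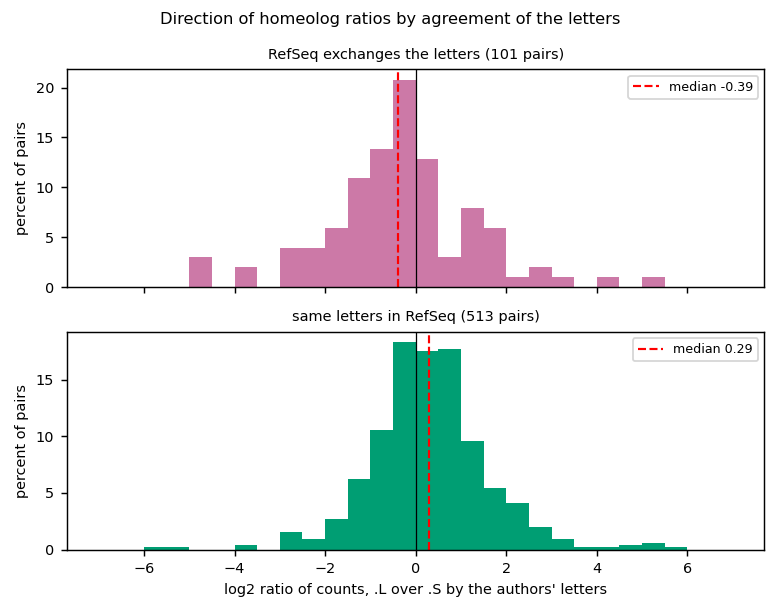
Percent of pairs (vertical axis) by log2 ratio of counts, .L over .S by the authors' letters (horizontal axis, bins of 0.5), for the 101 pairs whose letters are exchanged in RefSeq (top) and the 513 with the same letters (bottom). The dashed medians lie at -0.39 and 0.29, on either side of 0.

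Summed over the pairs, the .S copies held slightly more reads by the authors' letters and the .L copies more in the wider set of RefSeq pairs. The .L copies held 48.2 ± 0.292% of the counts of the 630 pairs by the authors' letters, and 55.2 ± 0.0936% of the counts of the 7375 RefSeq pairs (SD, n = 5). Single abundant pairs weigh on the first share. For .S these included actg1 (2504 CPM for .L, 5721 for .S) and fth1 (279 and 2895 CPM). For .L they included pabpc1 (1549 and 401 CPM) and rpl4 (1839 and 964 CPM). The share without such pairs was not computed, so it does not describe the pairs at large. Over all genes with a letter in RefSeq, 12683 .L genes held 50.7 ± 0.124% of all counts and 9544 .S genes 35.8 ± 0.121%, and genes with no letter held 13.5 ± 0.132%. The median log2 ratio of the 630 pairs differed by level: it was 0.40 in 92 pairs that summed to less than 10 CPM, 0.26 in 408 pairs of 10 to 100 CPM and -0.01 in 130 pairs of 100 CPM or more. With RefSeq letters the same classes had medians of 0.35, 0.36 and 0.11. In 25 pairs 1 copy was under 1 CPM while the other had to reach 1 CPM, so this choice favored unequal copies. Of these, 19 were called for .L and 6 for .S. In the other 605 pairs, .L was higher in 297 and .S in 223.

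The direction of the copy ratios mostly held from pool to pool, while their size varied about as much as the level of a single copy. The same copy was higher in all 5 libraries in 526 of 630 pairs (83.5%). That held for 518 of the 545 called pairs, but the calls came from the same 5 libraries, so this count is not separate support. Among 343 pairs with at least 10 CPM in both copies, the median SD between pools of the log2 level was 0.128 for .L and 0.137 for .S copies, and the median SD of their log2 ratio was 0.131. Had the copies of a pair varied separately, the SD of the ratio would have had a median of 0.199, and it was below its own such value in 270 of 343 pairs (78.7%). Counting error alone gave a median SD of 0.0898. Among 3517 RefSeq pairs at the same limit, the median SD was 0.119 for .L copies, 0.126 for .S copies and 0.139 for their ratio. The median for the ratio was there above those of the single copies. It was 0.184 for copies varying separately, and 74.5% of the RefSeq pairs were below their own such value.

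Pairs with strongly unequal copies included enzymes and junction and channel proteins. The largest called .L excess was in pdha1, the E1 alpha subunit of pyruvate dehydrogenase, which carries pyruvate into the citric acid cycle. Its .L copy had 193, 233, 195, 217 and 194 CPM and its .S copy 2.67, 4.30, 4.95, 4.52 and 5.30 CPM in controls A to E, a log2 ratio of 5.55 ± 0.12 (SE; adjusted p = 2.2e-10). The pairs named here and in the next paragraph were chosen for the largest ratios among called pairs with the same direction in all 5 pools. The gap between their copies and the small p-values therefore follow from that choice. The transcription factor gene cebpb had 23.7, 33.3, 27.2, 24.1 and 26.7 CPM for .L and 0.485 to 1.08 CPM for .S, a log2 ratio of 5.03 ± 0.14. The gap junction gene gja4, known from vessels, had 13.2 to 26.4 CPM for .L and 0.502 to 1.05 CPM for .S, a log2 ratio of 4.80 ± 0.13. The matrix protease gene mmp28, the nucleoside diphosphate kinase gene nme3, the mitochondrial import chaperone gene timm8b and the lipase gene liph had log2 ratios of 5.34, 4.60, 4.11 and 3.61. RefSeq has the same letters for these 7 pairs. For the peptidase gene dpp8 (log2 ratio 5.10) and a keratin listed as krt (4.35 ± 0.52; krt70 in RefSeq) RefSeq exchanges the letters, and for six3 (3.83) it names the .S copy as another eye-field factor, six6.S.

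In the other direction, selenbp1, which encodes a selenium-binding methanethiol oxidase, had 2.10, 1.76, 1.73, 1.13 and 1.90 CPM for .L and 63.4, 66.6, 81.0, 83.6 and 87.7 CPM for .S, a log2 ratio of -5.44 ± 0.12 (SE; adjusted p = 7.6e-12). scnn1b, the beta subunit of the epithelial sodium channel of frog skin and kidney, had 2.50 to 2.95 CPM for .L and 22.9 to 48.6 CPM for .S, a log2 ratio of -3.55 ± 0.12. The endoribonuclease gene endou had 3.31 to 4.85 CPM for .L and 35.9 to 73.5 CPM for .S, a log2 ratio of -3.68 ± 0.15. RefSeq has the same letters for these 3 pairs. Letters are exchanged in RefSeq for ndufa4 (log2 ratio -4.86), myl3 (-4.82), max (-4.58), tf (-3.57) and canx (-2.96), so that in RefSeq the .L copy is the higher one in these. For fn3krp (-6.58), RefSeq names the copies fn3k.L and fn3krp.S, relatives that both act on glycated proteins, and the .L copy had 14 of the 1411 counts of the pair, 0.992% (95% exact binomial interval 0.543% to 1.66%, counting error only). For fth1, RefSeq names fth1.2.L and fth1.1.S, 2 members of a ferritin heavy chain family. Their levels were 243, 242, 324, 283 and 305 CPM for .L and 2371, 2685, 3032, 3245 and 3142 CPM for .S.

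**Figure D4:**
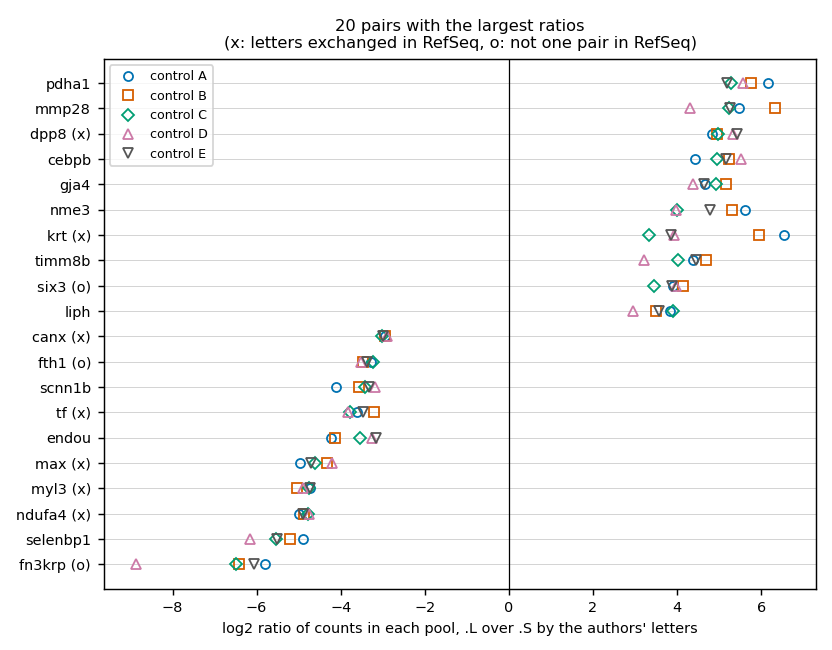
Log2 ratio of counts, .L over .S by the authors' letters (horizontal axis), in each of 5 control pools (symbols) for the 10 pairs with the largest ratios each way among called pairs with at least 10 CPM in the higher copy and the same direction in all 5 pools, with pairs whose letters are exchanged (x) or that are not named as 1 pair (o) in RefSeq marked. The choice of pairs puts every pool of a pair on the same side of 0; control D of fn3krp, at -8.87, lies apart from the other 4.

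Other pairs were close to equal. The ribosomal protein gene rps6 had 918, 971, 1047, 1075 and 1207 CPM for .L and 965, 955, 1055, 1109 and 1190 CPM for .S, a log2 ratio of -0.02 ± 0.03 (adjusted p = 0.57). The ranges of its copies overlapped, and both copies were highest in control E. The pair rpl17 (-0.05) was not called either, but its .S copy was higher in every pool, with log2 ratios from -0.083 to -0.028. The linker histone gene h1f0 (0.02) and the axon guidance gene dpysl3 (-0.01, letters exchanged in RefSeq) were not called. Neither was the mitochondrial malate dehydrogenase gene mdh2 (0.01). Standard errors of these pairs were between 0.03 and 0.05. All pairs named here, rps6 included, were chosen as the most abundant within a log2 ratio of 0.1. Their small ratios, and in part their lack of calls, therefore follow from that choice.

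In some pairs the ratio itself changed between pools. gng7, a G protein gamma subunit gene, had 2.22, 13.4, 13.9, 21.3 and 0.780 CPM for .L and 20.7, 17.7, 16.4, 15.5 and 16.9 CPM for .S in controls A to E. Its .L copy (called .S in RefSeq) was low in controls A and E, and the pair was not called (log2 ratio -1.10 ± 0.79, adjusted p = 0.25). papd4, a cytoplasmic poly(A) polymerase gene whose letters RefSeq exchanges, had 47.9, 47.4, 107, 86.1 and 101 CPM for .L and 11.9 to 14.0 CPM for .S. Its .L copy was lower in controls A and B than in the other 3 while its .S copy kept within a narrow range. The .S copy of krt, in turn, had 1.36 and 2.26 CPM in controls A and B and 11.6, 10.4 and 8.36 CPM in controls C to E. The NAD kinase gene nadk, the ETS factor gene elk4, the galectin gene lgals9c (letters exchanged in RefSeq) and ccdc124 also had among the 6 largest SDs of the ratio at 10 CPM or more in both copies.

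Counts by gene list are read here against all pairs: 50.2% were called for .L and 36.3% for .S among the 630 (median 0.20), and 54.9% and 30.2% among the 7375 RefSeq pairs (median 0.36). None of the list counts was tested against the rest. Muscle and heart pairs were few under the authors' symbols. Both skeletal muscle pairs were called for .S, with the same letters in RefSeq. The intermediate filament gene des.1 had 248, 232, 210, 181 and 187 CPM for .L and 807, 799, 702, 668 and 618 CPM for .S, a log2 ratio of -1.77 ± 0.03. Tropomyosin tpm2 had 211 to 303 CPM for .L and 578 to 785 CPM for .S, a log2 ratio of -1.30 ± 0.05. Of 5 heart pairs, .L was higher in 1, .S in 3, and 1 was not called (median -0.52), but with RefSeq letters, exchanged for myl3 and the limb and heart factor tbx5, the same 5 pairs had 3 for .L and 1 for .S (median 1.16). The ventricular myosin light chain gene myl3 averaged 17.7 ± 2.89 CPM for .L and 501 ± 60.4 CPM for .S, with 436 CPM in the lowest pool of .S by the authors' letters. The factor hand2 was higher for .L (8.63 ± 1.34 against 2.08 ± 0.196 CPM; log2 ratio 2.05 ± 0.13), gata6 for .S (log2 ratio -0.52 ± 0.07), and gata4 was not called. In RefSeq pairs, .L was higher in 8 and .S in 13 of 23 skeletal muscle pairs (median -0.35), and in 9 and 6 of 16 heart pairs (median 1.02).

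Neuronal pairs were mostly higher for .S under the authors' symbols. Of 8 pairs, .S was higher in 7 and .L in 1, with a median log2 ratio of -0.57, and with RefSeq letters .S was higher in 6 and .L in 2 (median -0.49). The synaptic vesicle gene syn2 had 6.31, 7.68, 5.85, 7.11 and 5.24 CPM for .L and 50.6, 43.5, 46.3, 49.4 and 48.4 CPM for .S, a log2 ratio of -2.90 ± 0.10. Its paralog syn1 was the exception, with 120, 125, 118, 132 and 132 CPM for .L and 53.6, 54.0, 53.1, 57.1 and 62.2 CPM for .S, a log2 ratio of 1.17 ± 0.04. Synaptophysin syp (-0.60), stathmin stmn2 (-0.53), neurofilament nefm (-0.45), growth cone protein gap43 (-0.41), synuclein sncg (-1.12) and vamp2 (-2.20) were the others, and RefSeq exchanges the letters of vamp2. Over the 29 neuronal pairs that RefSeq symbols form, .L was higher in 13, .S in 11, and the median was 0.03.

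Pairs of the energy and protein synthesis machinery went both ways. Of 7 pairs of oxidative phosphorylation, 5 were higher for .L and 2 for .S, or 6 and 1 with RefSeq letters. The cytochrome oxidase subunit gene cox6b1 had 91.1, 107, 125, 142 and 139 CPM for .L and 14.4, 16.1, 19.1, 19.4 and 19.2 CPM for .S, a log2 ratio of 2.77 ± 0.05. Cytochrome c1, cyc1, had 46.3 to 60.2 CPM for .L and 212 to 239 CPM for .S, a log2 ratio of -2.16 ± 0.05. The 52 RefSeq pairs of this list had 33 called for .L and 17 for .S, and their median of 0.37 was close to the 0.36 of all RefSeq pairs. Of 12 cytosolic ribosome pairs, 6 were higher for .L, 4 for .S and 2 were not called (5, 5 and 2 with RefSeq letters), with ratios from -0.70 for rps3a to 1.08 for rps3. rps3 had 1145, 1129, 1168, 1163 and 1324 CPM for .L and 513, 528, 554, 588 and 626 CPM for .S, while rps3a had 596 to 793 CPM for .L and 1033 to 1233 CPM for .S. In 56 RefSeq pairs of the ribosome, .L was higher in 26, .S in 18, and the median was 0.01. Of the 46 spliceosome pairs by RefSeq symbols, .L was higher in 20 and .S in 22.

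All 3 pairs of the glutathione and redox list were higher for .L, beside 50.2% of all pairs: the plasma glutathione peroxidase gene gpx3 (203 ± 17.1 against 53.2 ± 6.92 CPM; log2 ratio 1.94 ± 0.04), the lipid hydroperoxide-reducing gpx4 (142 ± 17.3 against 38.8 ± 7.93 CPM; 1.88 ± 0.07) and gpx8 (0.95 ± 0.14). The list's 21 RefSeq pairs had 14 called for .L and 7 for .S (median 0.76), beside 54.9%, 30.2% and 0.36 over all RefSeq pairs. Cytoplasmic actin actg1 had 2512, 2318, 2658, 2437 and 2597 CPM for .L and 5714, 5418, 6052, 5740 and 5681 CPM for .S, a log2 ratio of -1.19 ± 0.02. Actins are near identical in sequence, and how the authors' counting treated reads that fit several genes is not given in the sources used here, so the split between actin copies is uncertain.

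The longest gene list, of developmental transcription factors outside the hox clusters, held 36 pairs. The .L copy was higher in 15 and the .S copy in 12, and 9 were not called, beside 50.2% for .L and 36.3% for .S over all pairs. The median log2 ratio was 0.07, or 0.31 with RefSeq letters (34 pairs, 17 for .L and 8 for .S). Beside six3, the largest .L excess was in klf6, a zinc finger factor, with 51.7, 52.2, 51.8, 45.4 and 42.6 CPM for .L and 10.6, 8.32, 9.03, 8.40 and 7.97 CPM for .S (log2 ratio 2.46 ± 0.07). tbx1, a factor of pharyngeal development, had 15.7 to 20.5 CPM for .L and 3.34 to 6.71 CPM for .S (1.88 ± 0.14), and irx1 had 17.6 to 23.7 and 5.35 to 6.08 CPM (1.83 ± 0.09). The .S copies were higher for foxc2 (-1.31 ± 0.14), the neural crest factor foxd3 (-0.75 ± 0.13), sox9 of cartilage (-0.59 ± 0.06) and gata1 of red cells (-0.67 ± 0.11). The eye and brain factor pax6 was higher for .L (0.51 ± 0.07), while sox4, msx1, zic2 and pax3 were not called. In the 129 RefSeq pairs of this list, .L was higher in 66 and .S in 34 (median 0.39), beside 54.9%, 30.2% and 0.36 over all.

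The hox pair hoxa2, a hindbrain and second arch patterning gene, had 5 pools of .L at or under 3 counts. Its .L copy had 7 of 425 counts over the 5 libraries, 1.65% (95% exact interval 0.665% to 3.36%), and its .S copy had 4.78, 4.93, 4.82, 6.06 and 4.01 CPM. hoxb7 was higher for .S (-0.64 ± 0.17, letters exchanged in RefSeq). The list had 3 pairs by the authors' symbols, and the remaining one was higher for .L (log2 ratio 0.59). With RefSeq letters, 2 of the 3 were higher for .L and 1 for .S. The 21 RefSeq pairs of hox genes had 10 called for .L and 6 for .S, beside 54.9% and 30.2% over all RefSeq pairs.

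Of 10 pairs of signalling ligands, receptors and transducers, .L was higher in 6, .S in 3 and 1 was not called (median 0.45, beside 0.20 over all pairs), or 7, 2 and 1 with RefSeq letters. In 61 RefSeq pairs the counts were 41, 9 and 11 (median 0.63, beside 0.36 over all). The BMP signal transducer smad1 had 30.7, 24.4, 29.2, 24.9 and 27.5 CPM for .L and 6.65, 6.13, 4.66, 4.60 and 4.12 CPM for .S (log2 ratio 2.40 ± 0.11). The FGF receptor gene fgfr4 had 40.9 to 45.8 CPM for .L and 9.64 to 12.8 CPM for .S (1.97 ± 0.08). Among BMP ligands, bmp2 was higher for .S (2.26 ± 0.600 against 6.74 ± 0.422 CPM; -1.58 ± 0.15) and bmp4 was not called (14.0 and 13.1 CPM). bmp1, a protease that processes collagen and the BMP antagonist chordin, had a log2 ratio of -0.39 ± 0.08, with letters exchanged in RefSeq.

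Pairs of other cell types were few. All 3 endothelial pairs were higher for .L (aplnr 0.77, sox18 0.76 and fli1 1.64, the last named fli1.S and fli1b.S in RefSeq), while the 13 RefSeq pairs of the list had 6 for .L and 5 for .S (median 0.24, beside 0.36 over all). Of 5 endocrine pairs, .L was higher in 4, among them the thyrotropin-releasing hormone gene trh (13.2 ± 2.37 against 4.92 ± 1.15 CPM; log2 ratio 1.43 ± 0.10) and pomc (0.78 ± 0.10), and .S in the pituitary glycoprotein alpha subunit gene cga (-1.90 ± 0.30). Of 3 melanophore pairs, the receptor kit (-1.23 ± 0.13) and the pigment cell factor mitf (-1.84 ± 0.28) were higher for .S and rab27a was not called. The 10 RefSeq pairs of that list had 4 called for .L and 3 for .S (median -0.09). Of 9 pairs of dividing cells, 5 were higher for .L, with the replication helicase mcm7 at 1.27 ± 0.11, 3 for .S, with the spindle gene tpx2 at -0.74 ± 0.11, and 1 was not called, which is near the 50.2% and 36.3% of all pairs. Intestinal fabp2, a fatty acid carrier, had 159, 119, 229, 203 and 267 CPM for .L and 31.7, 33.8, 61.5, 47.0 and 63.2 CPM for .S (2.04 ± 0.07), both copies being highest in control E. In RefSeq pairs the 17 intestinal pairs had 13 called for .L and 3 for .S (median 2.04), beside 54.9%, 30.2% and 0.36 over all RefSeq pairs. The 11 RefSeq pairs of phagocytes had 8 and 1 (median 0.86), but the 1 phagocyte pair by the authors' symbols, ctss, was higher for .S (-1.04 ± 0.06). The 21 liver pairs by RefSeq symbols had 10 and 11 (median -0.32).

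**Figure D5:**
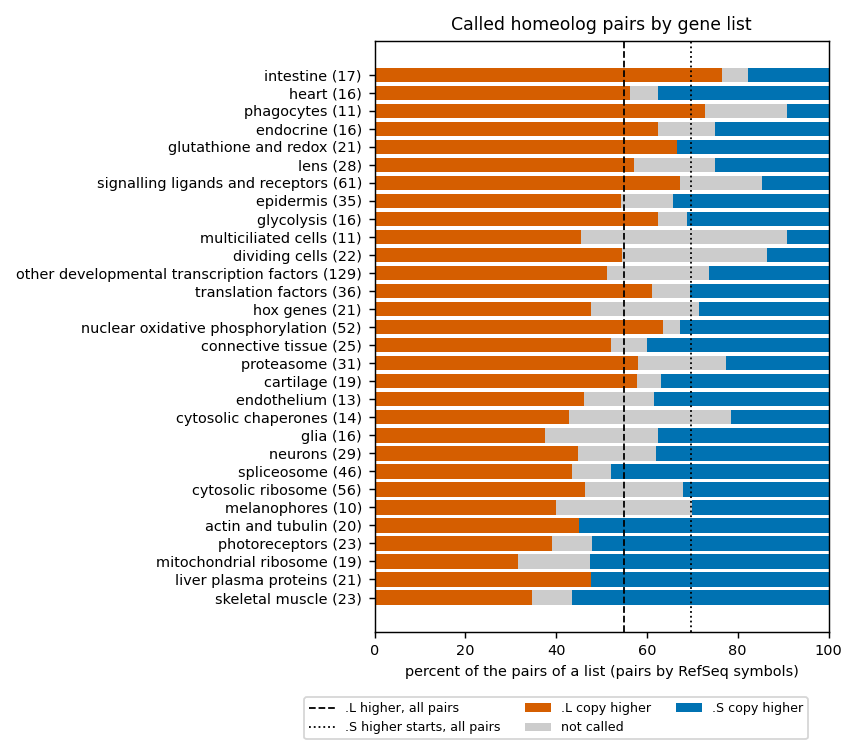
Percent of homeolog pairs by RefSeq symbols (horizontal axis) called higher for .L (left), not called (middle) or called higher for .S (right), for each gene list with at least 10 pairs (number of pairs in brackets, ordered by median log2 ratio). The dashed and dotted lines give the same split over all 7375 pairs, 54.9% for .L and 30.2% for .S, and skeletal muscle, at the bottom, had 8 pairs for .L and 13 for .S.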

How the data were processed

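Whole-embryo poly(A) RNA of 15 pools was measured; the 5 control libraries enter every comparison. Read counts per gene identifier were used as the authors deposited them, with no normalization. The submitters' processing notes name Trim Galore, HISAT2, kallisto and edgeR; no source used here gives the build, the counter or its use of strand and of multiply mapped reads, so near-identical copies may share reads. The authors' deposited table of log2 fold changes was used only for its gene symbols. Of 37018 identifiers, 33597 matched the RefSeq gene table (v10.1) by identifier, which gave the names of single genes, and 1468 were named only by the authors; pairs follow the authors' letters.

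CPM were scaled by TMM. Pairs were fitted in edgeR 4.0.16 (R 4.3.3; glmQLFit, robust) with the library as a block, since both copies come from the same library, and Benjamini-Hochberg adjustment over 630 pairs; the threshold was 0.05. Standard errors come from the F statistic, so they too rest on a spread shared over pairs and are not the SD between pools. The test was also run on simulated counts, but these were drawn separately for each copy, so that run is not used as support here. No 2 libraries were duplicates (chi-square per gene 6.14 to 14.9 over 10 library pairs). Alternatives used DESeq2 1.42.0, limma 3.58.1, other filters, scalings, symbols and single libraries left out. Intervals and the floor of 3 counts cover counting error only.

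A length term was planned, but no transcript lengths were at hand, so every pair was fitted without one and genes were named by CPM, not CPM per kb. Named were the 25 genes with most counts among those whose symbol is no placeholder, the 2 highest of each list, the 10 genes varying most, the 10 largest ratios each way (at least 10 CPM in the higher copy, same direction in all libraries), each list's pair with most counts and with the largest ratio, the 5 most abundant pairs within a log2 ratio of 0.1, and the 6 with the most variable ratio; other list members were named after their values were seen. The members, the 36 gene lists (35 with measured genes) and the tests were chosen with earlier results of these data known. A few genes of these lists and pairs are not reported here.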

Additional observations from a re-analysis of the deposited data

Results flagged for a closer look

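In groups of 5, a value was set aside where its gap to the next exceeded the 95% limit of Dixon's test, which chance alone passes in about 1 of 20 groups. Of 196 quantities examined, 18 passed, 14 of them in control B, 2 in control A and 1 each in controls D and E. The 196 include the 10 genes chosen for the highest coefficient of variation, all high in control B alone, so their passing was fixed by that choice. Of the other 186 quantities, 8 passed, 4 of them in control B. That share is not above the 1 of 20 that chance alone passes.

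In control B, the exocrine pancreas list held 0.327% of counts, against at most 0.00610% in the other pools. The 10 genes of highest variation, named because of it, were all high there, with ctrc.L at 606 CPM, cpa1.L at 533 CPM, ctrb1.L at 322 CPM, cela1.5.L at 308 CPM, cel.2.L at 221 CPM, ctrl.L at 179.5 CPM, cel.2.S at 162 CPM, cela1.3.L at 114 CPM, cela1.1.L at 82.6 CPM and cpb1.S at 56.4 CPM, against at most 6.55 CPM elsewhere. In the same pool the epidermis list held 1.32% of counts, against 1.42% to 1.46% in the other 4. The log2 ratio of .L over .S was -0.43 for gata1, against -0.76 to -0.69, and 0.62 for aplnr, against 0.78 to 0.83.

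In control A, the connective tissue list held 1.96% of counts, against 1.60% to 1.67%, and slc25a5.L had 2399 CPM, against 3016 to 3100 CPM. In control E, rho.L had 864 CPM, against 599 to 651 CPM. In control D, the log2 ratio of fn3krp was -8.87, against -6.49 to -5.79; its .L copy had no count there, so the value is set by the constant of 0.5 added to the counts.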

How the results depend on the processing

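The balance of the copies kept its direction under every alternative run. Its size changed with the letters and, to a smaller extent, with the CPM limit and the pools used. Pairs by RefSeq symbols gave 4046 called for .L and 2229 for .S, 2177 and 972 at least 2-fold, with a median log2 ratio of 0.36 over 7375 pairs. Pairs with the same symbols in both sources gave 63 at least 2-fold for .S and a median of 0.29. RefSeq letters on the same pairs, an alternative chosen after seeing the data, gave a median of 0.30. The median was 0.16 with 1 CPM required in both copies and 0.17 with 10 CPM in 1 copy. Leaving out each library in turn gave medians of 0.175 to 0.204, with 301 to 309 pairs for .L and 221 to 228 for .S; without control B, the pool with pancreas genes, these were 0.175, 301 and 224. DESeq2 called 297 and 212 pairs, limma 310 and 228. Without the replicate block, 303 and 216 pairs were called with a median of 0.21, and of the named pairs only col2a1 lost its call (log2 ratio 0.23, adjusted p = 0.16).

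Under RefSeq letters the log2 ratio turned to -5.10 for dpp8, -4.35 for krt, 4.86 for ndufa4, 4.82 for myl3, 4.58 for max, 3.57 for tf, 2.96 for canx, -2.54 for papd4, -1.95 for pabpc1, -1.89 for ldha, 1.42 for lgals9c, -1.34 for glul, -1.24 for pde6g, 1.10 for gng7 (1.08 among RefSeq pairs), 0.64 for hoxb7, 0.39 for bmp1 and 0.0085 for dpysl3, which the exchange of letters brings about. 2 pairs near 0 changed sign with a library: dpysl3 ran from -0.030 (without control C) to 0.014 (without A), with 0.0072 without B, and mdh2 from -0.030 (without D) to 0.059 (without C), with -0.0099 without B. ccdc124 was called only without control D (0.34, adjusted p = 0.027). The 25 named genes with most counts were the same with no scaling. The planned fits with a length term or restricted to pairs with lengths were not run, as no lengths were at hand. Counts limit the pairs in which 1 copy is under 1 CPM.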
